A study of Homo sapiens with 3 samples.

Results

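This account concerns 8 genes that encode leukocyte growth factors and lymphoid cytokines, namely CSF1, CSF2, CSF3, IL23A, IL32, IL18, IL33 and TSLP. They were chosen by symbol from a table of 55773 gene symbols, and all 8 were present, each in 1 row. RNA sequencing had been carried out on 3 lines of HaCaT, human epidermal keratinocytes that became immortal in culture without an introduced oncogene. All 3 lines, the control included, carry the oncogenic HRAS form G12V. On top of it they carry an empty vector, wild-type THG-1 (the product of TSC22D4) or THG-1 S264A, a form with alanine in place of a serine, and they were grown in DMEM with 10% fetal bovine serum. Each line is represented by 1 library, and the sources used here do not say whether a line is a clone or a pool of transduced cells. Differences therefore compare 3 libraries, no p-value is given, and intervals cover counting error only. The empty-vector line is called the control below.

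The 8 products act mainly on white blood cells. CSF1, CSF2 and CSF3 drive the growth and survival of macrophages, of granulocytes and macrophages, and of neutrophils. The product of IL23A pairs with that of IL12B to form IL-23, which sustains IL-17-producing T cells, and IL32 encodes a cytokine that makes monocytes release TNF. IL-18 and IL-33 belong to the IL-1 family. Keratinocytes store IL-18 as a precursor that caspase-1 cleaves and keep IL-33 in the nucleus until damage releases it, and TSLP is an epithelial cytokine known from atopic skin.

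Promoter windows are shown for the 3 genes with at least 10 reads in a library and a window at hand, so that their sequence can be set beside the values below. RefSeq windows (GRCh38.p14, 250 bases before to 50 after the transcript start) were found for 5 of the 8 genes, CSF2, IL23A, IL32, IL33 and TSLP. The lines below give the windows of CSF2 at chr5:132073539-132073838, IL23A at chr12:56338634-56338933 and the first of 2 windows of IL32 at chr16:3065153-3065452, all on the plus strand. Capitals mark matches to the NF-kB consensus, taken as GGGRNWYYCC, or to the AP-1 motif TGANTCA, searched on both strands. Here R is A or G, W is A or T, Y is C or T and N is any base.
CSF2: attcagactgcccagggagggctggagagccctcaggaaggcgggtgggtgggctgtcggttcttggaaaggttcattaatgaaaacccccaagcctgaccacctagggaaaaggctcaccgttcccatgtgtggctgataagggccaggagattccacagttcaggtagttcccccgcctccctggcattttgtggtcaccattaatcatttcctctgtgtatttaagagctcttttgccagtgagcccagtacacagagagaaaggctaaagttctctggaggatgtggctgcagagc
IL23A: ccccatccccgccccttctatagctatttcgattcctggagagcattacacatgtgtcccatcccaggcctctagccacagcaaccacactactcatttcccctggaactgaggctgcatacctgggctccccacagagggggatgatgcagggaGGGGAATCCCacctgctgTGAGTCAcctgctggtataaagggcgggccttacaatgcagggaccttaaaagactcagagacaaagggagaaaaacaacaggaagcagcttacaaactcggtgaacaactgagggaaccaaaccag
IL32: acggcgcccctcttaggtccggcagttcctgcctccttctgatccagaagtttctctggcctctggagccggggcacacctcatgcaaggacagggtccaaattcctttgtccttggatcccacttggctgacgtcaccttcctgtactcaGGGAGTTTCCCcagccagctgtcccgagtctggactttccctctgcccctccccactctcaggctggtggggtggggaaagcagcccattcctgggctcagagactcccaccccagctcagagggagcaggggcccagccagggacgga
The IL23A window held an NF-kB match, GGGGAATCCC, that starts at -95 relative to the transcript start and reads as a match on either strand, and an AP-1 match, TGAGTCA, at -77. The IL32 window held overlapping NF-kB matches on the 2 strands, GGGAGTTTCC at -99 and its partner at -98. The CSF2 window held no match to either string. Of 35116 RefSeq windows of this length, 5.91% held the NF-kB consensus and 7.71% the AP-1 motif. The other IL32 window, the 2 IL33 windows and 2 of the 3 TSLP windows held no match to either motif, while the remaining TSLP window held the NF-kB consensus at -191 and at 5. A match describes letters only, and a window without a match can still hold sites that depart from these strings.

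Of the 8 transcripts, CSF2, IL23A and, at a lower level, CSF3 were highest in the wild-type line. IL32 and IL33 were higher there than in the control, but their difference between the wild-type and S264A lines was within counting error. CSF1 was lowest in the S264A line, IL18 was abundant and differed by at most 1.18-fold between lines, and TSLP was not detected. Levels are given as RPKM, the reads of a gene scaled to its length and to the depth of the library. The libraries held 12733479 (wild-type THG-1), 14022885 (S264A) and 32055052 reads (empty vector). TSC22D4 exceeded its control level 8.14-fold in the wild-type line and 6.41-fold in the S264A line, the 2 lines labelled as carrying THG-1. All 7 keratinocyte markers examined, KRT5, KRT14 and TP63 among them, stood between 17.4 and 439 RPKM in every library. KRT14 exceeded its control level 2.42-fold with wild-type THG-1 and 3.21-fold with S264A. HRAS was at 23.9, 27.8 and 22.4 RPKM in the control, wild-type and S264A lines. Of the 8 cytokine genes, IL18, CSF1, CSF2 and IL23A reached 1 RPKM in at least 1 library, CSF3, IL32 and IL33 stayed between 0 and 1 RPKM, and TSLP had no read. Genes with 10 reads or fewer in a library are called near the floor below. A change in the share of cells that make a cytokine and a change in the RNA per cell cannot be told apart in such bulk libraries.

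**Figure D1:**
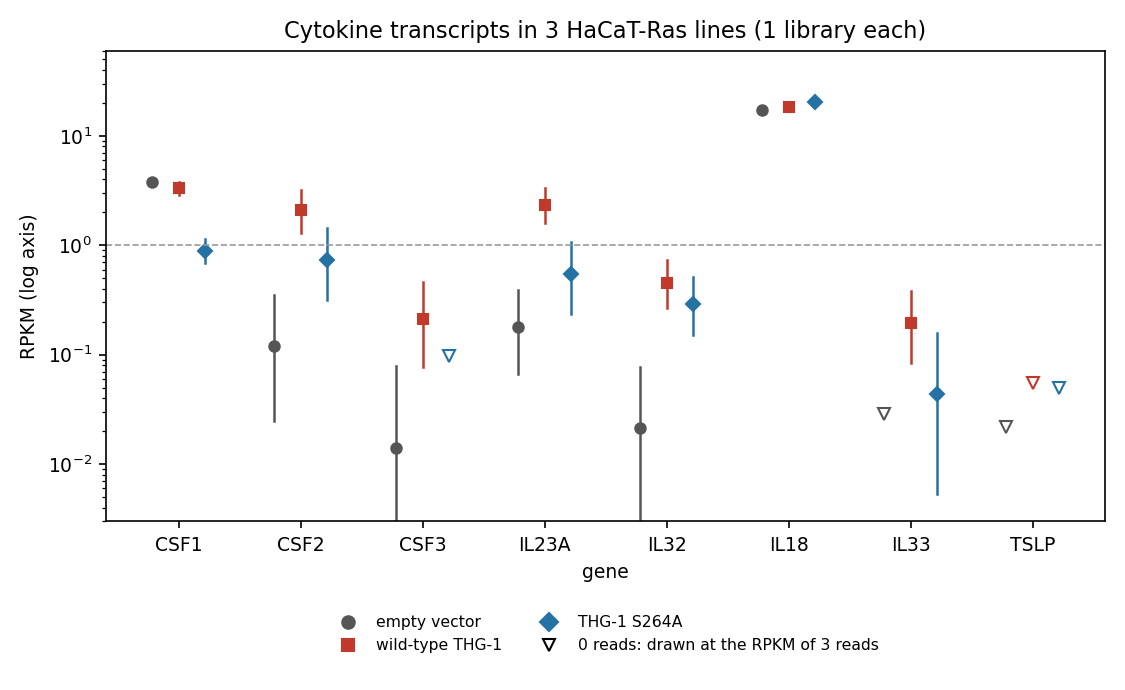
RPKM of the 8 cytokine genes on a log axis in the empty-vector, wild-type THG-1 and S264A libraries, with exact 95% Poisson intervals for the reads and open triangles where a library had 0 reads. CSF2 and IL23A stood above 1 RPKM (dashed line) only in the wild-type line, CSF1 was lowest in the S264A line at 0.895 RPKM, and the IL18 points lay between 17.2 and 20.3 RPKM.

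CSF1 encodes macrophage colony-stimulating factor. Its level was 3.80 RPKM in the control (660 reads), 3.30 RPKM in the wild-type line (228 reads) and 0.895 RPKM in the S264A line (68 reads). It was thus low in the S264A line alone. The S264A level was 4.25-fold lower than in the control (95% counting interval 3.30 to 5.53) and 3.69-fold lower than in the wild-type line (2.80 to 4.92). The ratio of wild type to control was 0.870, with an interval of 0.745 to 1.01 that includes no difference. CSF1 was the only one of the 8 genes that was lower in the S264A line than in the control beyond counting error, and 45.5% of 18410 protein-coding genes stood below it in the S264A line, against 66.1% in the control.

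CSF2 encodes granulocyte-macrophage colony-stimulating factor. Its level was 0.120 RPKM in the control (3 reads), 2.11 RPKM in the wild-type line (21 reads) and 0.729 RPKM in the S264A line (8 reads). It was highest in the wild-type line and near the floor in the other 2 libraries. Wild type stood at 17.6 times the control (5.26 to 92.3) and S264A at 6.10 times (1.46 to 35.7). The S264A level was 2.89-fold lower than the wild-type level (1.23 to 7.55). The excess over control, in RPKM, was 30.7% as large in the S264A line as in the wild-type line, a share for which no interval was computed.

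CSF3, which encodes granulocyte colony-stimulating factor, was near the floor everywhere. It had 1 read in the control (0.0141 RPKM), 6 reads in the wild-type line (0.212 RPKM) and 0 reads in the S264A line, where 3 reads would stand at 0.0964 RPKM. The wild-type level was the highest, with a ratio to control of 15.1 and an interval of 1.83 to 695. In the quantile-normalised columns that ratio became 48.3. Set against 3 reads in the S264A library, the level there was at least 2.20-fold lower than with wild type, a bound that takes the 6 wild-type reads as exact. With counting error in both libraries the ratio of S264A to wild type could be as high as 0.771. No fold is given between S264A and control, which were both at or under 3 reads.

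IL23A, which encodes the subunit specific to IL-23, had the same order of libraries as CSF2. Its level was 0.180 RPKM in the control (6 reads), 2.34 RPKM in the wild-type line (31 reads) and 0.548 RPKM in the S264A line (8 reads), near the floor outside the wild-type line. The ratio of wild type to control was 13.0 (5.35 to 38.1). That of S264A to control was 3.05, and its interval of 0.927 to 10.7 includes no difference. The S264A level was 4.27-fold lower than the wild-type level (1.92 to 10.7), and the excess over control was 17.1% of that with wild type. The partner subunit gene IL12B had 0 reads in all 3 libraries, where 3 reads would stand at 0.0339 to 0.0853 RPKM.

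IL32 was high in both THG-1 libraries relative to the empty-vector library, where it was near the floor, and all its levels were under 1 RPKM. It stood at 0.0213 RPKM in the control (2 reads), 0.457 RPKM in the wild-type line (17 reads) and 0.293 RPKM in the S264A line (12 reads). Wild type stood at 21.4 times the control (5.08 to 191) and S264A at 13.7 times (3.05 to 126). In the authors' quantile-normalised columns these ratios became 66.7 and 37.7, where the control is listed at 0.00711. The ratio of S264A to wild type was 0.641, and its interval of 0.279 to 1.42 includes no difference.

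**Figure D2:**
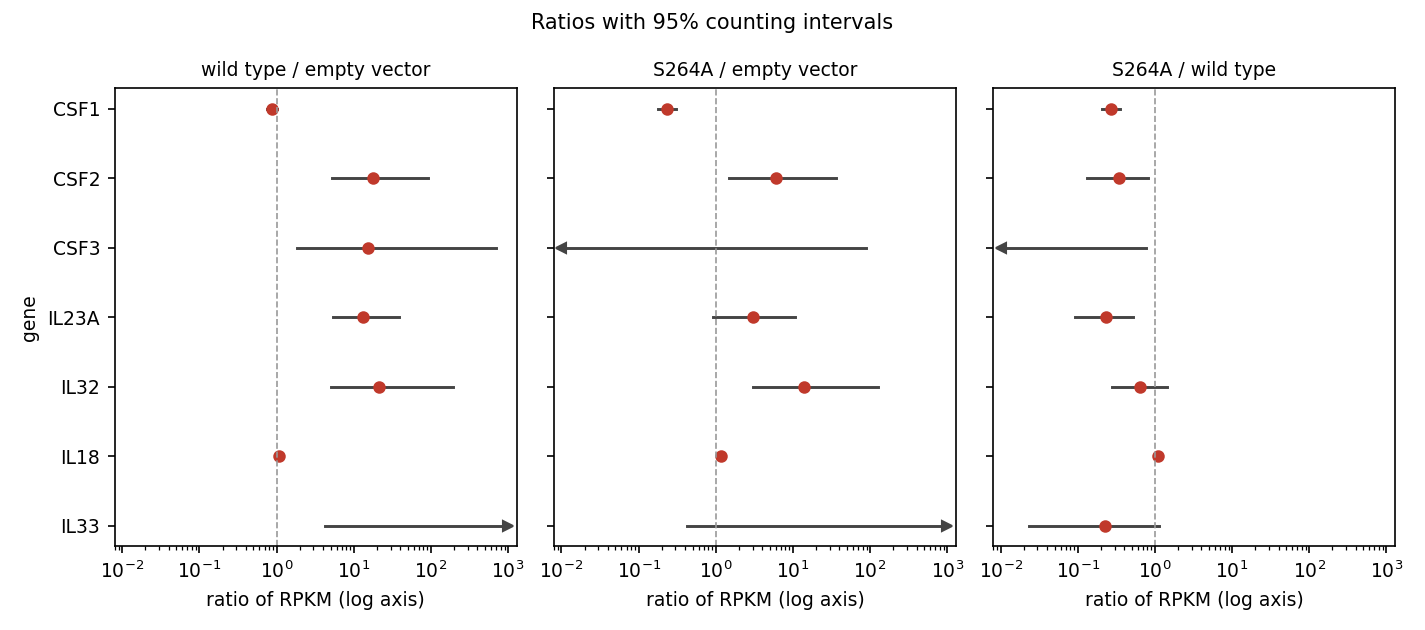
Ratios of RPKM (points, log axis) with exact 95% counting intervals (lines) for the 7 cytokine genes with reads, in each of the 3 comparisons, where arrows mark intervals that run past the axis and a missing point marks a library at 0 reads. Wild type against control gave intervals above 1 for CSF2, CSF3, IL23A, IL32 and IL33, and S264A against wild type gave intervals below 1 for CSF1, CSF2, CSF3 and IL23A.

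IL18, by contrast, was abundant and nearly level. It stood at 17.2 RPKM in the control (1445 reads), 18.5 RPKM in the wild-type line (620 reads) and 20.3 RPKM in the S264A line (749 reads), above 92.1% to 93.4% of protein-coding genes. Wild type stood at 1.08 times the control (0.982 to 1.19) and S264A at 1.18 times (1.08 to 1.30), and the ratio of S264A to wild type was 1.10 (0.985 to 1.22). The log2 difference of 0.10 between wild type and control turned to -0.03 in the quantile-normalised columns and to -0.05 with libraries scaled to an equal sum, so that no direction is given. The depth was ample here: the interval of the wild-type ratio leaves out any difference of 2-fold.

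IL33, the other member of the IL-1 family, was near the floor. It had 0 reads in the control, 8 reads in the wild-type line (0.194 RPKM) and 2 reads in the S264A line (0.0441 RPKM). Set against 3 reads in the control, the wild-type level was at least 6.71-fold higher, a bound that takes its 8 reads as exact. With counting error in both libraries the ratio had a lower limit of 4.30, and at the smallest gene length that gives whole reads, with 4 wild-type reads, the bound was 3.36 and the lower limit 1.66. The ratio of S264A to wild type was 0.227, with an interval of 0.0235 to 1.14 that includes no difference. TSLP had 0 reads in every library, where 3 reads would stand at 0.0219, 0.0550 and 0.0500 RPKM for the empty-vector, wild-type and S264A libraries at a length taken from GENCODE, so that its expression was not detectable at this depth.

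In each library IL18 came first and CSF1 second in RPKM, but below IL18 the order was not always beyond counting error. The second place of CSF1 was clear of counting error with empty vector alone. With empty vector the intervals of IL23A and CSF2 overlapped, as did those of IL32 and CSF3. With wild-type THG-1 the intervals of CSF1 (2.89 to 3.76 RPKM), IL23A (1.59 to 3.32 RPKM) and CSF2 (1.30 to 3.22 RPKM) overlapped, and in the S264A line those of CSF1, CSF2 and IL23A did.

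Among all genes, a difference was counted where log2((RPKM a + 1)/(RPKM b + 1)) reached 1 in size, a scale that understates changes of low genes, and where at least 1 of the 2 libraries reached 1 RPKM. For wild type against control 4 of the 8 cytokine genes entered, and 2 (CSF2 at 1.47 and IL23A at 1.50) were counted as higher and 0 as lower, where 4.53% of 11993 genes were higher and 1.54% lower. For S264A against control 2 entered, and CSF1 (-1.34) was counted as lower, where 0.824% of 12010 genes were, and 0 as higher, where 2.99% were. For S264A against wild type 4 entered, and CSF1 (-1.18) and IL23A (-1.11) were counted as lower, where 2.23% of 12069 genes were, while CSF2 at -0.85 was not, and 0 were counted as higher, where 1.55% were. Every gene counted here passed 1 RPKM only in the library where it was high, so the counts of those that entered support nothing further. The median log2 difference over all 8 genes was 0.26, 0.15 and -0.24 in the 3 comparisons (0.24, 0.17 and -0.18 with libraries at 0 reads set to 3). Without a minimum level, the median over all genes with a read in either library was -0.02, 0.004 and 0.03. Over the cytokine genes that entered, the median was 0.79, -0.55 and -0.98, beside -0.01, 0.02 and 0.02 over all genes that entered. The sign for S264A against control thus depends on the genes taken. Higher genes made up 74.6% of those counted for wild type against control and 62.7% after scaling to an equal sum, which moved the median gene to -0.14. For S264A against wild type they made up 41.0%, and 50.9% after that scaling, which moved the median gene to 0.12.

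By the counting interval alone, which needs no minimum level, 5 of the 7 cytokine genes with reads were higher in the wild-type line than in the control, where 19.2% of 24794 genes with reads were, and 0 were lower, where 19.0% were. S264A against control gave 3 of 7 higher (CSF2, IL32 and IL18), where 18.4% of 25030 genes were, and 1 lower (CSF1), where 15.1% were. S264A against wild type gave 4 of 7 lower (CSF1, CSF2, CSF3 and IL23A), where 15.3% of 23609 genes were, and 0 higher, where 17.8% were. These shares show how often counting error is exceeded between libraries of different cultures, and the 2 comparisons with the control share its library.

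**Figure D3:**
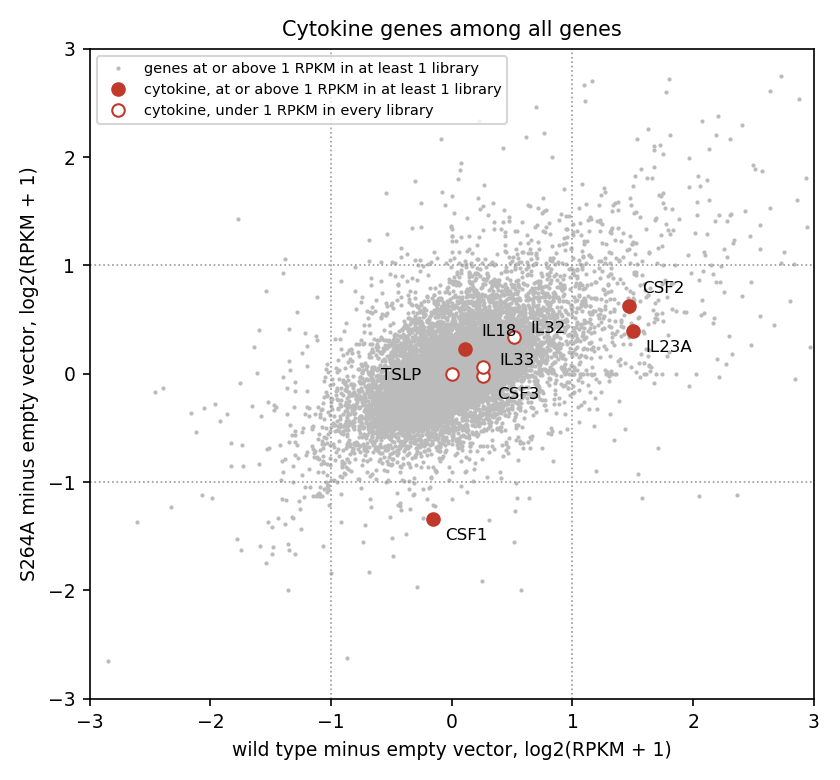
Log2 differences in RPKM + 1 of wild type (x axis) and S264A (y axis) from the empty-vector library for 12379 genes that reached 1 RPKM in any library (grey, 38 of them beyond the axes) and for the 8 cytokine genes (red, open where under 1 RPKM in every library), with dotted lines at 2-fold. Both axes share the empty-vector library. CSF2 and IL23A lie right of the line at 1, CSF1 lies below the line at -1, and IL18 lies near the origin.

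Markers of leukocytes, the main makers of several of these cytokines, were examined beside CSF2 and IL23A. The summed level of 10 such markers was 1.25 RPKM in the control, 6.46 RPKM in the wild-type line and 2.11 RPKM in the S264A line. CD68, which epithelial cells also transcribe, was the 1 marker of 10 that reached 1 RPKM, and the sum without it was 0.311, 1.25 and 0.415 RPKM, of which HLA-DRA made up 0.982 RPKM in the wild-type line. The pan-leukocyte gene PTPRC was at 0.00367 RPKM in the control, 0 RPKM in the wild-type line and 0.00838 RPKM in the S264A line, and CD1A and CD207 were at 0 RPKM throughout. The summed level of the 3 simple-epithelial markers KRT8, KRT18 and EPCAM, all above 1 RPKM, was also highest in the wild-type line, at 262 RPKM in the control, 537 RPKM in the wild-type line and 262 RPKM in the S264A line. KRT18 was 2.43-fold higher in the wild-type line than in the control (2.36 to 2.50) and 2.37-fold lower in the S264A line than in the wild-type line, and KRT8 stood at 126, 247 and 126 RPKM. The markers of fibroblasts, melanocytes and endothelial cells summed to at most 2.07 RPKM per list and library, and the endothelial marker PECAM1 was not found. Of these markers MITF and VWF passed 1 RPKM. In the control, wild-type and S264A lines MITF was at 0.600, 1.70 and 0.829 RPKM and VWF at 0.311, 0.348 and 1.51 RPKM. The part of any of these markers' cells in the cytokine levels was not tested.

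The receptors through which the 8 cytokines act were mostly near the floor. Of 12 receptor genes 4 reached 1 RPKM in at least 1 library, namely IL18R1, IL1RL1, IL1RAP and IL7R. The receptors of the colony-stimulating factors were almost silent, with CSF1R at 0.0485, 0.107 and 0.0138 RPKM in the empty-vector, wild-type and S264A libraries, CSF2RA and CSF3R at 3 reads or fewer in each library and CSF2RB at 0 reads in all 3. IL23R and IL18RAP, the signalling chain for IL-18, also had 0 reads, and IL12RB1, the other chain of the IL-23 receptor, had at most 2. CRLF2, the chain specific to TSLP, had 1 read in the control and 0 elsewhere, whereas its partner IL7R stood at 3.02, 3.18 and 3.18 RPKM.

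IL1RL1, which encodes the IL-33 receptor ST2 and its soluble form, was the 1 receptor gene counted as different. For wild type against control 4 receptor genes entered, with IL1RL1 counted as higher and 0 as lower. Over all genes these shares were 4.53% and 1.54%. In this comparison IL1RL1 passed 1 RPKM only in the wild-type library, where it was high, so its count supports nothing further. For S264A against wild type 4 entered, with IL1RL1 counted as lower and 0 as higher. Over all genes these shares were 2.23% and 1.55%. IL1RL1 stood at 0.320 RPKM in the control, 3.32 RPKM in the wild-type line and 1.12 RPKM in the S264A line, highest in the wild-type line. That is a ratio of 10.4 (7.77 to 14.0) for wild type against control, and S264A was 2.97-fold lower than wild type (2.33 to 3.83). The log2 difference between S264A and wild type went from -1.03 to -0.95 with scaling to an equal sum, under the 2-fold rule. IL1RAP, the chain that ST2 shares with the IL-1 receptor, was at 2.75, 2.77 and 2.16 RPKM. IL18R1, the binding chain for IL-18, was at 0.676, 1.16 and 0.345 RPKM. In plain ratio its S264A level was 3.36-fold lower than its wild-type level (2.02 to 5.79). On the RPKM + 1 scale that log2 difference was -0.68, and IL18R1 was under the 2-fold rule in the 2 comparisons it entered.

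**Figure D4:**
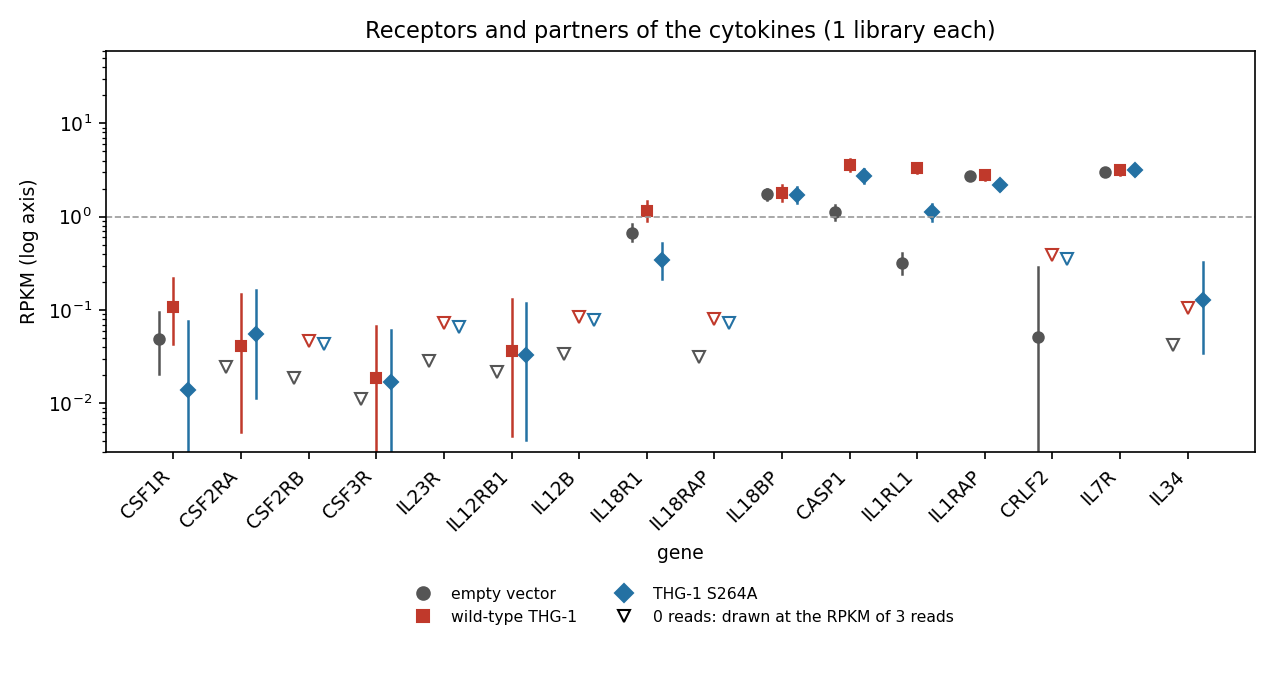
RPKM of receptor chains, partner subunits, the IL-18 inhibitor IL18BP, the IL-18-cleaving caspase CASP1 and the other CSF1R ligand IL34 on a log axis, with exact 95% Poisson intervals and open triangles for libraries with 0 reads. IL1RL1 and CASP1 stood highest in the wild-type line, at 3.32 and 3.59 RPKM, and 10 of the 16 genes stayed below 1 RPKM (dashed line) in every library.

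Of 16 partner, processing and decoy genes 9 entered the comparison of wild type with control, and 1 was counted as higher and 0 as lower, beside 4.53% and 1.54% of all genes. This was CASP1, which encodes the protease that activates IL-18, at 1.11 RPKM in the control, 3.59 RPKM in the wild-type line and 2.72 RPKM in the S264A line. Wild type stood at 3.22 times the control (2.55 to 4.07) and S264A at 2.44 times (1.91 to 3.12). The latter difference, 0.82 on the log2 scale of RPKM + 1, was under the 2-fold rule. NLRP1, an inflammasome sensor of keratinocytes, had the same order of libraries at lower levels (0.209, 1.04 and 0.568 RPKM). Its plain ratios to control were larger than those of CASP1, at 4.95 with wild type (3.79 to 6.49) and 2.71 with S264A (2.01 to 3.66). NLRP1 was not counted for wild type because the RPKM + 1 scale put it at 0.75 in log2, under the 2-fold rule. For S264A against control it did not enter, with both libraries under 1 RPKM. The inflammasome adaptor PYCARD was at 14.3, 11.6 and 14.2 RPKM, and IL18BP, the secreted inhibitor of IL-18, at 1.74, 1.80 and 1.70 RPKM. Of the 8 genes of this list that entered for S264A against control and the 9 against wild type, 0 were counted.

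Of 16 signal transducers 11 entered the comparison of wild type with control, and 1 was counted as higher and 0 as lower, beside the same shares of all genes. The gene counted was SOCS1, an inhibitor of JAK kinases, at 0.255, 1.67 and 0.640 RPKM, a ratio of 6.55 (3.05 to 15.2). These levels rest on 10, 26 and 11 reads, so that SOCS1 was near the floor in the control. It passed 1 RPKM only in the wild-type library, where it was high, so its count supports nothing further. SOCS2, another inhibitor of cytokine receptors, was at 4.82, 3.42 and 1.94 RPKM. In plain ratio it was 2.49-fold lower in the S264A line than in the control (2.13 to 2.93). Its log2 difference of -0.99 on the RPKM + 1 scale was just under the 2-fold rule. STAT3, which carries the signal of the IL-23 and CSF3 receptors, was at 12.9, 15.6 and 11.5 RPKM. JAK2, a kinase bound to the receptors of CSF2 and IL-23, was at 1.13, 0.479 and 1.03 RPKM, lowest in the wild-type line. It was 2.36-fold under the control there (1.66 to 3.44), a log2 difference of -0.53 on the RPKM + 1 scale. Of the 10 transducers that entered for S264A against control and the 11 against wild type, 0 were counted.

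Of 15 other growth factors and cytokines for leukocytes, KITLG and FLT3LG alone reached 1 RPKM, and 8 (IL2, IL3, IL4, IL5, IL9, IL13, IL21 and IL25) had 0 reads in every library. KITLG, which encodes stem cell factor, the ligand of KIT on mast cells and melanocytes, was at 7.08 RPKM in the control, 3.56 RPKM in the wild-type line and 7.78 RPKM in the S264A line. It was low in the wild-type library, 1.99-fold under the control (1.75 to 2.28). Its log2 difference of -0.83 on the RPKM + 1 scale was under the 2-fold rule. IL7, a growth factor of lymphocytes, was at 0.800, 0.810 and 0.231 RPKM and so, as CSF1, lowest in the S264A line, from 11 reads there. IL34, the other ligand of CSF1R, had 4 reads in the S264A line and 0 elsewhere.

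The genes nearest to each cytokine gene in the 2 log2 differences of RPKM + 1 from control were sought among 10326 protein-coding genes over the 3 libraries. CSF2 lay nearest to ICAM1, the leukocyte adhesion receptor gene, at a distance of 0.0382, then to KPNA7 and SAMD4A, with 50 genes within 0.25. ICAM1 stood at 1.47, 5.95 and 2.73 RPKM in the control, wild-type and S264A lines. IL23A lay nearest to CDC42EP1, at 0.0482, then to the interferon-induced gene MX1 and to APOBEC3B, with 35 genes within 0.25. CDC42EP1 stood at 26.0, 74.4 and 33.4 RPKM and APOBEC3B at 13.4, 39.0 and 17.2 RPKM. Genes near each other on this scale can thus differ much in plain ratio, which for IL23A was 13.0. Counting error spans far more than these distances. For wild type against control the log2 interval was 1.01 to 1.71 for CSF2 and 1.10 to 1.76 for IL23A. For S264A against control it was 0.13 to 0.92 and -0.02 to 0.74. The order of the genes nearest to CSF2 and IL23A is therefore not resolved. CSF1 had few genes near it, with EPB41L2 at 0.127 and ZNF532 at 0.209 as the 2 within 0.25, and N-cadherin (CDH2) next at 0.260. IL18 had 2045 genes within 0.25, with BTG2 and IRF2BPL among the nearest, so that many genes had a pattern close to its own.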

How the data were processed

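The deposited table holds RPKM for 57773 rows, made by the authors library by library per the file headers, and a second set of RPKM columns. These are quantile-normalised by the authors, tested on the values: they sort to the same values in all 3 libraries. The submitters' processing notes name build hg19. Aligner, counting program, strandedness and annotation were not given in the sources used here. Rows of a symbol with several rows (234 symbols) were reduced to that with the highest mean. Depths were taken from genes with 1 exon block and a known GENCODE 29 length, and whole reads (within 0.001 reads at low counts) from the length that fits all 3 libraries and lies nearest to GENCODE's, which worked for 25888 of 25889 symbols above 0. Ratios carry exact Clopper-Pearson 95% intervals and levels exact Poisson intervals. Reads are not independent molecules, and the floor is 3 reads. With 1 library per line no test was possible, and differences were compared by size, with a pseudocount of 1. GENCODE overlaps showed only the small nuclear RNA pseudogene RNU1-125P (0 RPKM) within IL32 and an antisense gene at TSLP. Named genes are the 8 cytokine genes, defining partners, listed genes counted as different, others as examples, and the 3 nearest protein-coding genes by Euclidean distance, apart from items not reported here. The members and lists were chosen with earlier results of these data known. The scripts were tested on simulated data and run with Python 3.11.15, numpy 2.4.6, pandas 2.3.3 and scipy 1.17.1. Alternatives covered the columns, pseudocount, filter, scaling, gene type and gene length.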

Additional observations from a re-analysis of the deposited data

How the results depend on the processing

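CSF2 and IL23A (wild type against control), CSF1 (S264A against control) and CSF1 and IL23A (S264A against wild type) stayed counted in the quantile-normalised columns, without a filter and with upper-quartile or equal-sum scaling. With a pseudocount of 0.1 they did too, with CSF2 added in the last comparison. With a pseudocount of 5 or a filter at 5 RPKM, 0 of them were counted in any comparison, by construction, since all 3 stand under 5 RPKM. No counted difference changed sign. For all genes the higher and lower counts for wild type against control (543 and 185) became 869 and 492 with a pseudocount of 0.1, 166 and 18 with 5, and 317 and 70 with a filter at 5 RPKM. For S264A against control (359 and 99) they became 695 and 246, 85 and 9, and 178 and 26 in the same order, and for S264A against wild type (187 and 269) 509 and 518, 26 and 63, and 71 and 149. Protein-coding genes alone gave 123 higher there. The smallest fitting length gave CSF1 478 reads in place of 956, so that S264A was 2.98 to 6.24-fold under the control. It gave IL33 5 reads in place of 10, and the bound of wild type over control fell from 6.71 to 3.36. The quantile-normalised column lists TSLP at 0.00354 in the wild-type line, although it had no read. No paired analysis was possible because each line has 1 library, and no library could be left out. Depth limits CSF3, IL33 and TSLP most.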

Other observations

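The mRNAs of CSF2, CSF3 and several other cytokines carry AU-rich elements that speed their decay. The 7 genes examined for proteins that act on the stability of cytokine mRNAs were all above 1 RPKM in every library. For wild type against control 1 of these was counted as higher and 0 as lower, beside 4.53% and 1.54% of all genes. This was ZC3H12A, which encodes the ribonuclease Regnase-1, at 3.11 RPKM in the control, 12.8 RPKM in the wild-type line and 4.76 RPKM in the S264A line. Its ratio of wild type to control was 4.11 (3.56 to 4.75), and S264A was 2.69-fold lower than wild type (2.28 to 3.18). For S264A against wild type it was the 1 of the 7 counted as lower, where 2.23% of all genes were. There 0 were counted as higher, where 1.55% of all genes were. For S264A against control 0 were counted, beside 2.99% higher and 0.824% lower over all genes. ZFP36, which encodes tristetraprolin, was at 6.07, 7.85 and 7.63 RPKM, and ELAVL1, which encodes the stabilising protein HuR, at 11.4, 10.2 and 11.0 RPKM. The median log2 difference of the 7 genes was 0.32 for wild type and 0.29 for S264A against control, and 0.03 for S264A against wild type.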
